A study of Rattus norvegicus with 36 samples.

Results

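Genes of DNA replication and cell division were followed across 33 rat mammary cancers and 3 normal mammary tissues. The members were given as 42 gene symbols, and a gene was taken where a probe set on the array carried that symbol and no other. That held for 39 of the 42, out of 14218 symbols measured. Rrm2, Cdc6 and Tpx2 were not matched and are not analysed here. All 39 passed the filter on weak signals, an intensity above 125.8 on at least 3 arrays, although Tyms was above it on 17 of the 36 arrays, 1 of them normal, and Ttk on 19, 0 of them normal. Levels are given as log2(intensity + 42.8), so 1 unit is a doubling for a strong signal and less than the true change for a weak one.

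All samples came from female Sprague-Dawley rats on a diet with 23.5% corn oil from 9 weeks of age, the normal tissue being from untreated animals. Spontaneous cancers (3 arrays) arose without treatment, and radiation cancers (4 arrays) followed a single whole-body dose of 1 Gy of gamma rays at 7 weeks. The rats were bought at 5 weeks, and the chemicals were likewise given from 7 weeks of age. MNU, an alkylating agent, was injected at 40 mg/kg, and its cancers were divided by mutation of H-ras into mutated (5 arrays) and nonmutated (4 arrays). PhIP, a mutagen of cooked meat, was given by gavage at 40 mg/kg per day, with 3 nonmutated cancers and 1 mutated one. Rats given both treatments received the chemical 3 days after 1 Gy, which gave 5 mutated and 4 nonmutated radiation plus MNU cancers and 4 nonmutated radiation plus PhIP cancers. The spontaneous and radiation cancers were nonmutated. Whether any rat gave more than 1 cancer is not stated, so p-values measure the spread between these samples.

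A dividing cell copies its DNA from origins licensed by Cdt1 and the Mcm2 to Mcm7 helicase, with Pcna as the sliding clamp and Rrm1 and Tyms supplying nucleotides. Cyclins A and B with Cdk1 then drive entry into mitosis. The checkpoint proteins Bub1, Bub1b, Ttk and Mad2l1 hold back Cdc20 until chromosomes are attached, and Aurora and Polo kinases and kinesin motors build and divide the spindle. Many of these genes are switched on in late cell cycle through the CHR element and CCAAT boxes, the replication genes earlier through E2F sites. In bulk tissue their RNA is widely used as a measure of proliferation. On such arrays, a larger share of dividing cells and more RNA per dividing cell cannot be told apart.

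Because the members moved together from cancer to cancer, their promoters were searched for these elements. The window was the 250 bases before the annotated start in the RefSeq table for GRCr8, which held 34 of the 42 listed genes. The motifs were TTTGAA (the core of the CHR), CCAAT, and TTCCCGC or TTGGCGC (forms of the E2F site), each on both strands. CCAAT was present in 23 of 34 member windows (67.6%, against 34.0% of the 33469 windows of the table). E2F letters were present in 8 of 34 (23.5%, against 5.00%), in 6 of the 12 replication members and 2 of the 22 mitosis members. The CHR core was present in 9 of 34 (26.5%, against 16.2%), in 8 of the 22 mitosis members and 1 of the 12 replication members, and 8 of 34 windows held it with CCAAT (23.5%, against 5.87%). Motifs overlapped in 2 windows, CCAAT with E2F in Mcm7 and CCAAT with the CHR core in Mki67. These are matches of letters, not measured binding. The windows of 6 members that show both arrangements follow, 5′ to 3′ on the strand of the gene, with every motif in capitals. Mcm6 (chr13:42404353-42404602, minus strand) and Mcm7 (chr12:22163179-22163428, minus strand), subunits of the replicative helicase, hold E2F and CCAAT letters. Top2a (chr10:84473094-84473343, minus strand), Prc1 (chr1:143659231-143659480, plus strand), Cdc20 (chr5:137255800-137256049, minus strand) and Birc5 (chr10:103571896-103572145, plus strand) act in mitosis and hold the CHR core with CCAAT.
Mcm6: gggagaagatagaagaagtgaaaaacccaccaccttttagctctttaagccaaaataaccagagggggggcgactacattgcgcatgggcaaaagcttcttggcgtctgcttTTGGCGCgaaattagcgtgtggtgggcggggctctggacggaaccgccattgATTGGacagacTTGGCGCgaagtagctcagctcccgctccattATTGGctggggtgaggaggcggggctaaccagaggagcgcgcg
Mcm7: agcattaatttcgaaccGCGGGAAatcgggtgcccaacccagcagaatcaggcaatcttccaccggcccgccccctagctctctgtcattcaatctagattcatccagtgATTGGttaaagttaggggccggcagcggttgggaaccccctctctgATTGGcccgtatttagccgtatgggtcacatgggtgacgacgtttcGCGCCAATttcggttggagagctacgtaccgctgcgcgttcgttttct
Top2a: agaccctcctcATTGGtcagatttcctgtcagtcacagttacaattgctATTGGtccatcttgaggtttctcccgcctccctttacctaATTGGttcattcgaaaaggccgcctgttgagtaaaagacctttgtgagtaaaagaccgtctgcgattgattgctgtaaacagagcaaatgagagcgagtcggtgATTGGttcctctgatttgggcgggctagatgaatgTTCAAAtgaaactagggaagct
Prc1: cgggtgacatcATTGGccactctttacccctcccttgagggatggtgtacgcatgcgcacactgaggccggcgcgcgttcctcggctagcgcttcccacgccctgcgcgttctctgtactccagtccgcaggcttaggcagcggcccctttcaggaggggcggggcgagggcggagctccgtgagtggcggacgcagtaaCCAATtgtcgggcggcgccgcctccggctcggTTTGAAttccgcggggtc
Cdc20: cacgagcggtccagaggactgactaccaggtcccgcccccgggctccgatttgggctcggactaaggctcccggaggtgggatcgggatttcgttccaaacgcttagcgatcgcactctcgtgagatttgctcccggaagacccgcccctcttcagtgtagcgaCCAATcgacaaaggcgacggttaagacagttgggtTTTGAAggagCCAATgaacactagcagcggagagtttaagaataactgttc
Birc5: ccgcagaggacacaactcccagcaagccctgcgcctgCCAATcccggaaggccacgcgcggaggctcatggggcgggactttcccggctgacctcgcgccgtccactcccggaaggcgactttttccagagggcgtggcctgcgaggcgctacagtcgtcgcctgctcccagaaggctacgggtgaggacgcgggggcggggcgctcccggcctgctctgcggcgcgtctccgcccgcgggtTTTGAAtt

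Normal tissue and cancers differed in much besides cell division, and single arrays stood apart. All 7 measured adipocyte genes fell in the cancers (16.3% of all genes fell), their mean level being 11.97 to 12.58 in normal tissue and 7.07 to 8.73 in cancers. All 6 endothelial and 5 of 7 macrophage genes fell, while 6 of 10 luminal epithelial genes rose (18.0% of all genes), the luminal mean being 11.26 to 11.81 in normal tissue and 11.55 to 12.39 in cancers. Their part in the differences between cancers and normal tissue below was not tested. PhIP nonmutated 2 had a fibroblast gene mean of 8.23, against 10.60 to 12.25 in the other 32 cancers. The log2 ratio of the 3′ to the 5′ hexokinase probe set, a sign of RNA quality, was 2.47 in MNU nonmutated 4 and 1.89 in MNU mutated 1, and 0.68 to 1.41 on all other arrays. Values without these arrays stand beside the results that they move most.

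Averaged over the 39 genes, spontaneous cancers stood highest and normal tissue lowest. The mean level was 9.76, 10.002 and 10.11 in the spontaneous cancers and 8.87, 8.74 and 8.16 in normal tissue, so that these groups did not overlap. The PhIP nonmutated cancers came next at 9.78 ± 0.82 (SD, n = 3) and were widely spread, with 10.48, 9.99 and 8.88 on their 3 arrays. The fibroblast mean of 8.23 belongs to the array at 10.48. Radiation cancers lay at 9.47 ± 0.39 (SD, n = 4), radiation plus PhIP at 9.30 ± 0.20 (SD, n = 4) and MNU nonmutated at 9.18 ± 0.49 (SD, n = 4). The other groups were lower still. Radiation plus MNU nonmutated cancers averaged 9.03 ± 0.21 (SD, n = 4), MNU mutated cancers 9.02 ± 0.29 (SD, n = 5) and radiation plus MNU mutated cancers 8.91 ± 0.53 (SD, n = 5), and the single PhIP mutated cancer was at 8.82. Each group overlapped its neighbour in this order, and the PhIP mutated cancer lay inside the range of normal tissue. Across all 33 cancers the mean level ran from 8.42 to 10.48, a range of 2.05 on the log2 scale, and 53.0% of its variation lay within groups.

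**Figure D1:**
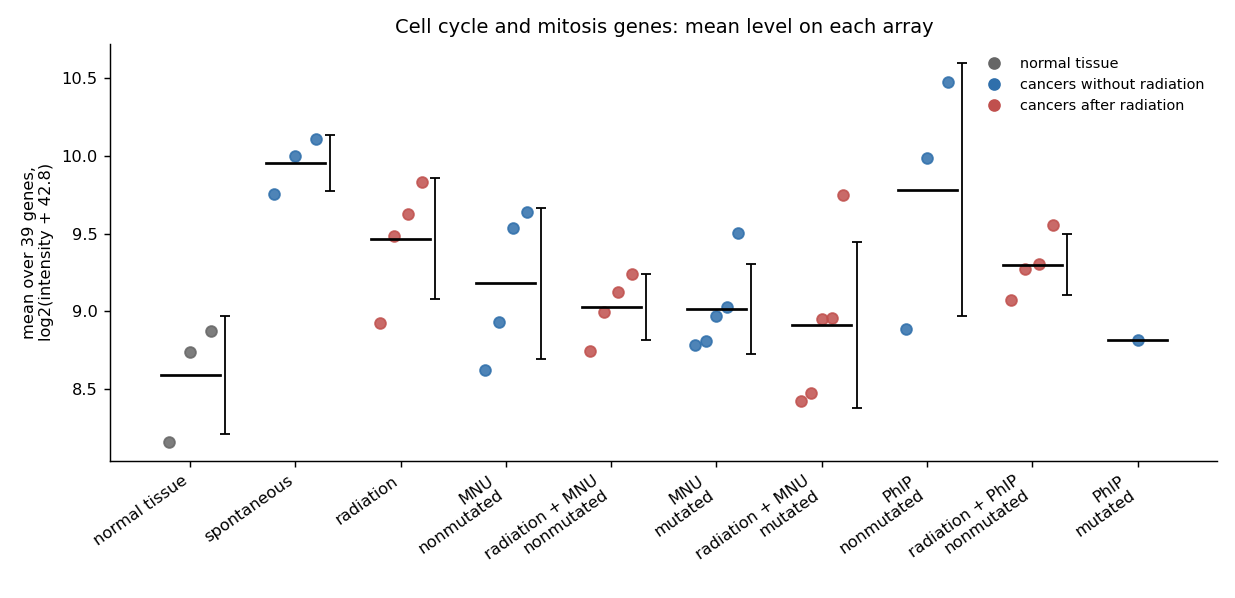
Mean level of the 39 genes on each array, as log2(intensity + 42.8), by group; each point is 1 array, horizontal lines are group means and vertical bars are 1 SD. The 3 spontaneous cancers sit between 9.76 and 10.11, above the 3 normal tissues at 8.16 to 8.87, and the PhIP nonmutated cancers span 8.88 to 10.48.

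The levels of the genes varied together across cancers. The correlation of each member with the mean of the other 38 across the 33 cancers ran from 0.65 for Prim1, the primase subunit, to 0.98 for Ccna2, cyclin A. All 741 pairs of members had a correlation above 0, with a median of 0.78 and a lowest value of 0.29. The correlations are descriptions and share the arrays and their scaling. After the group means were taken out, the median correlation of a member with the mean of the other 38 was 0.87, which is not comparable with the median over pairs. Before that step, replication genes were the loosest in correlation with the mean of the others. Cdt1 had 0.70, Mcm7 0.72, Mcm5 0.75 and Mcm4 0.75, with the kinesin Kif2c at 0.72 among them. Kif11 had 0.97, Top2a 0.97, Nusap1 0.97 and Prc1 0.96.

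**Figure D2:**
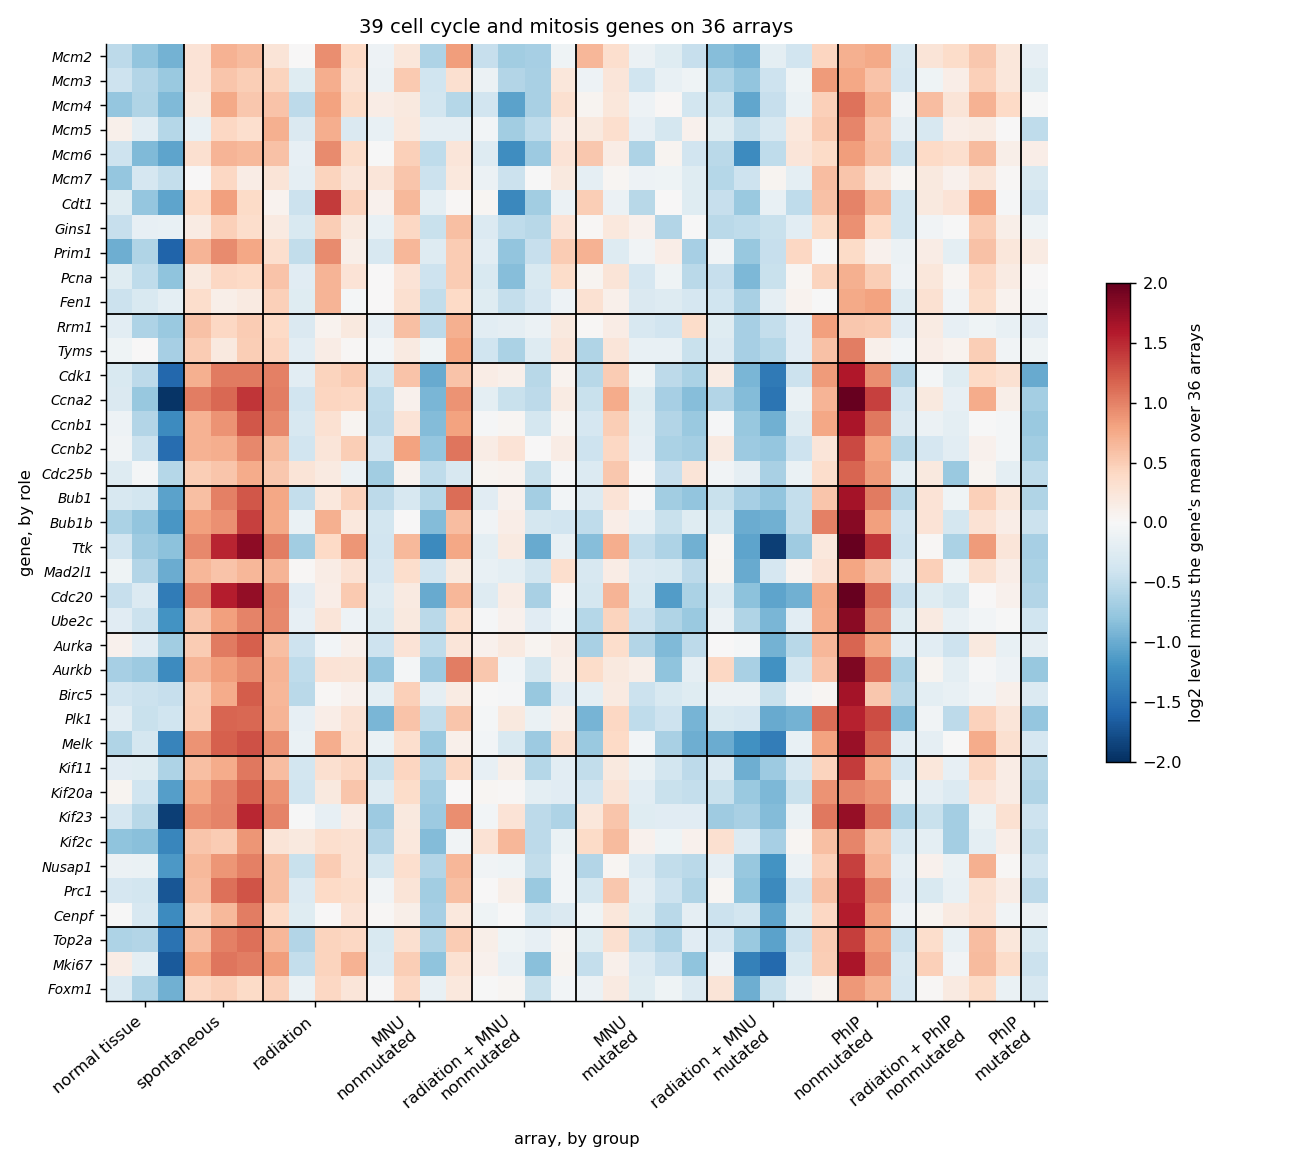
Level of each of the 39 genes (rows, by role) on each of the 36 arrays (columns, by group) minus that gene's mean over the arrays, on a log2 scale. Deviations ran from -1.96 to 2.12, the 3 values past 2 being drawn in the darkest red, and normal tissue 3 is low and PhIP nonmutated 2 high across nearly the whole block.

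The first comparison asked how strongly these genes are expressed in cancer against normal mammary tissue. Of the 39, 18 rose in the 33 cancers and none fell, at an adjusted p under 0.05 in limma over all 11773 genes, of which 18.0% rose. Every one of the 39 had a higher mean in the cancers, as had 52.2% of all genes. The median difference was 0.67 on the log2 scale, against 0.02 over all genes. At an unadjusted p under 0.05, 25 of the 39 were higher, against 23.6% of all genes. The cancers overlapped normal tissue for each of the 39 genes. The normal tissues differed among themselves, normal tissue 3 being lowest of the 3 for 35 of the 39 genes. Without it only Kif2c, Prim1 and Mcm7 rose, without normal tissue 2 the number was 7 and without normal tissue 1 it was 15. Calls over all genes, in either direction, dropped as well, from 4045 to 2680 without normal tissue 2. Leaving out any other single array gave no fewer than 2680. For the 33 cancers together, the share of all genes that rose without each normal tissue was not counted. In normal tissue 3 the hexokinase ratio was 1.02, against 1.41 and 1.07, and the luminal mean 11.81, against 11.35 and 11.26.

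Licensing and fork genes held 8 of the 18 that rose, out of 11 measured. Prim1, which makes the RNA primers of replication, was at 9.22, 9.58 and 8.60 in normal tissue and from 9.40 to 11.14 in cancers, with a median of 10.31. Its rise was 1.16 ± 0.27 (SE, adjusted p = 0.00137), and 30 of the 33 cancers were above every normal tissue. Subunits of the Mcm helicase rose too, Mcm6 by 0.86 ± 0.29 (SE, adjusted p = 0.0206), Mcm2 by 0.82 ± 0.25 (SE, adjusted p = 0.0120) and Mcm4 by 0.82 ± 0.25 (SE, adjusted p = 0.0130). Mcm3 rose by 0.63 (adjusted p = 0.0391) and Mcm7 by 0.58 (adjusted p = 0.0108). Mcm7 was at 10.11, 10.56 and 10.42 in normal tissue and from 10.33 to 11.52 in cancers. The licensing factor Cdt1 rose by 0.75 (adjusted p = 0.0476) and the clamp Pcna by 0.57 (adjusted p = 0.0476), both close to the threshold. Mcm5 differed by 0.24 ± 0.22 (SE, adjusted p = 0.422), the GINS subunit Gins1 by 0.28 (adjusted p = 0.336) and the flap nuclease Fen1 by 0.33 (adjusted p = 0.176), and none of these passed. Of the nucleotide genes, Rrm1 of ribonucleotide reductase rose by 0.57 (adjusted p = 0.0489), also close to the threshold. Rrm1 passed in 18 of 44 alternative settings, Cdt1 in 23 and Pcna in 22. Thymidylate synthase Tyms differed by 0.27 (adjusted p = 0.357).

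Among the cyclins and Cdk1, 1 of 5 rose. Ccna2 was at 8.65, 8.17 and 6.97 in normal tissue and from 7.48 to 10.94 in cancers, with a median of 8.80, and rose by 1.09 ± 0.40 (SE, adjusted p = 0.0325). Cdk1 had nearly as large a difference, 0.87 ± 0.37 (SE, adjusted p = 0.0661), and did not pass. Ccnb2 (0.74, adjusted p = 0.0723), Ccnb1 (0.70, adjusted p = 0.0935) and the Cdk1-activating phosphatase Cdc25b (0.31, adjusted p = 0.274) did not pass either. In the checkpoint group 2 of 6 rose. Bub1b, the BubR1 kinase-like protein, rose by 0.94 ± 0.32 (SE, adjusted p = 0.0220), from 7.42, 7.26 and 6.90 in normal tissue to a range of 7.06 to 9.87. Mad2l1 rose by 0.61 (adjusted p = 0.0249). Cdc20 (0.78, adjusted p = 0.108), Ttk (0.69, adjusted p = 0.225), the ubiquitin conjugase Ube2c (0.67, adjusted p = 0.0737) and Bub1 (0.64, adjusted p = 0.130) were higher without passing.

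Of the mitotic kinases and passenger genes, 1 of 5 rose. Aurkb, the kinase of the passenger complex, rose by 0.96 ± 0.35 (SE, adjusted p = 0.0357), from 8.46, 8.39 and 7.87 in normal tissue to a range of 7.91 to 10.99. Its partner Birc5 was tight in normal tissue, at 8.73, 8.68 and 8.65, and differed by 0.47 (adjusted p = 0.136). Melk (0.83, adjusted p = 0.0660), Plk1 (0.38, adjusted p = 0.439) and Aurka (0.30, adjusted p = 0.388) did not pass. Of the spindle genes, 3 of 7 rose. Kif2c, a kinesin that takes microtubules apart at centromeres, had the smallest adjusted p of all members, with 8.53, 8.49 and 8.03 in normal tissue and 8.47 to 10.31 in cancers. It rose by 1.07 ± 0.24 (SE, adjusted p = 0.000846), and 32 of 33 cancers lay above every normal tissue. The midzone motor Kif23 rose by 1.01 ± 0.38 (SE, adjusted p = 0.0390) and the midzone bundler Prc1 by 0.88 ± 0.32 (SE, adjusted p = 0.0331). Cenpf (0.58, adjusted p = 0.0671), Kif20a (0.53, adjusted p = 0.131), Nusap1 (0.51, adjusted p = 0.165) and Kif11 (0.39, adjusted p = 0.243) did not pass.

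In the remaining group, Top2a and Foxm1 rose and Mki67 did not pass. Topoisomerase Top2a, which untangles chromosomes, was at 9.61, 9.65 and 8.75 in normal tissue and from 9.15 to 11.61 in cancers, and rose by 0.97 ± 0.29 (SE, adjusted p = 0.00966). Foxm1, a transcription factor of mitotic genes, rose by 0.67 ± 0.19 (SE, adjusted p = 0.00844). Mki67, which encodes the Ki-67 antigen used in pathology, was at 10.13, 9.79 and 8.31 in normal tissue and from 8.43 to 11.63 in cancers, so that 14 of 33 cancers lay above every normal tissue. Its difference was 0.63 ± 0.36 (SE, adjusted p = 0.179), and 0.08 without normal tissue 3. Of 26 mitosis members 9 rose and of 13 replication members 9 rose, with median differences of 0.68 and 0.58. In 10 of the 39 genes several probe sets carried the symbol, and some disagreed. In a fit over probe sets, a second Kif11 probe set gave 1.25 (adjusted p = 0.0114) where the one used gave 0.39. Of 4 Cdc20 probe sets that passed the filter, the one used gave 0.78, another 1.10 (adjusted p = 0.00243) and one more -0.02. For Mad2l1, counted among the members that rose, the other probe sets gave 0.58 (adjusted p = 0.0537) and 0.01 (adjusted p = 0.970). With the mean of probe sets Mad2l1 did not pass.

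**Figure D3:**
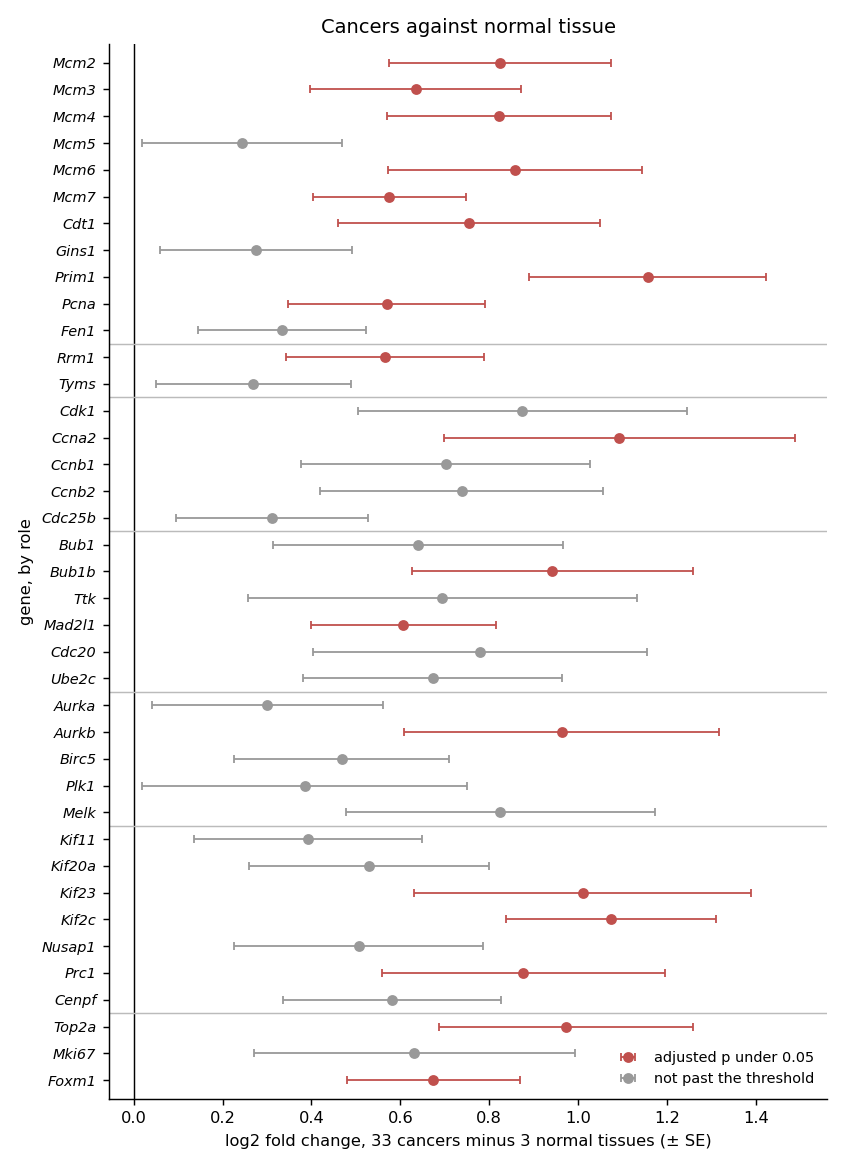
Difference in level between the 33 cancers and the 3 normal tissues for each of the 39 genes, on the log2 scale, with bars of 1 SE; red points passed an adjusted p of 0.05 and grey points did not. All points lie above 0, from 0.24 for Mcm5 to 1.16 for Prim1, and 18 are red.

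Set group by group against the same 3 normal tissues, the number of members that rose differed widely, and these comparisons share their controls. In spontaneous cancers 34 of 39 rose (13.0% of all genes) with a median of 1.31, and in PhIP nonmutated cancers 33 (12.8% of all genes) with a median of 1.14. The radiation cancers had 15 (12.2%) and the radiation plus PhIP cancers 8 (11.8%). MNU mutated and MNU nonmutated cancers had 3 each (15.2% and 11.6%), radiation plus MNU mutated cancers 2 (12.3%) and radiation plus MNU nonmutated cancers 1 (7.69%). No member fell in any of these 8 groups. The counts rested on single arrays, as leaving out arrays one by one, an alternative chosen after seeing the data, showed. Without PhIP nonmutated 2, the array with few fibroblast transcripts, 1 member rose in the PhIP nonmutated cancers (6.83% of all genes), and the median was 0.87. Without normal tissue 3 the count was 16 for spontaneous (9.19% of all genes), 6 for PhIP nonmutated (9.02%) and 3 for radiation cancers (8.19%). It was 1 for radiation plus PhIP (7.51%), 1 for MNU mutated (11.01%) and 0 for the other 3 groups (5.04% to 8.76%). In the groups with a count of 3 or fewer, the share of members was thus no higher than that of all genes. Leaving out spontaneous 3 gave 22 for the spontaneous cancers (8.53% of all genes). Leaving out radiation 3 gave 5 for the radiation cancers (9.09%). Mki67 was 1.54 ± 0.49 (SE, adjusted p = 0.0217) above normal tissue in spontaneous cancers and 0.01 ± 0.44 (SE, adjusted p = 0.989) above it in radiation plus MNU mutated cancers. Prim1 rose by 1.86 in spontaneous cancers (adjusted p = 0.000476), by 1.21 in MNU nonmutated cancers (adjusted p = 0.0105) and by 0.88 in radiation plus MNU mutated cancers (adjusted p = 0.0442). The single gene of the radiation plus MNU nonmutated cancers was Kif2c, at 1.06 (adjusted p = 0.0147). These groups were compared with each other only in the tests that follow.

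Whether the 6 groups of nonmutated cancers differed was tested with an F test in the same fit. None of the 39 members passed at an adjusted p under 0.05, as 0.00849% of all genes did, while 16 of 39 had an unadjusted p under 0.05, against 8.85% of all genes. Of these 16, 14 were among the 26 mitosis members and 2 among the 13 replication members. The smallest p-values belonged to Cdc25b (adjusted p = 0.323), Cdc20 (adjusted p = 0.414) and Mcm4 (adjusted p = 0.424). Cdc20, the activator of the anaphase-promoting complex, was at 10.09, 10.68 and 10.86 in spontaneous cancers and at 11.16, 10.23 and 8.64 in PhIP nonmutated cancers. It was at 10.08, 8.88, 9.23 and 9.62 in radiation cancers, at 8.85, 8.75, 9.11 and 9.19 in radiation plus PhIP cancers, at 8.85, 9.28, 8.09 and 9.77 in MNU nonmutated cancers, and at 8.85, 9.24, 8.46 and 9.12 in radiation plus MNU nonmutated cancers. The spontaneous cancers were all above 10, and the PhIP nonmutated cancers were the most widely spread of these groups. When arrays were weighted by how closely they followed their group, 25 of the 39 passed, against 7.22% of all genes, with Cdc25b at adjusted p = 0.00811. PhIP nonmutated 3 then carried a weight of 3.20 and MNU nonmutated 4 a weight of 0.22. Leaving out spontaneous 3 took the 16 to 4, leaving out PhIP nonmutated 2 took it to 9, and leaving out PhIP nonmutated 4 took it to 31. For counts at an unadjusted p, here and below, the share of all genes with an array left out was not counted.

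Radiation was compared with no radiation in 4 backgrounds: no chemical, MNU mutated, MNU nonmutated and PhIP nonmutated. With equal weight on each, all 39 members were lower in the irradiated cancers, as were 57.1% of all genes, and the median difference was -0.29 on the log2 scale against -0.02. None passed at an adjusted p under 0.05 (0% of all genes), and 8 were lower at an unadjusted p under 0.05, against 5.91% of all genes. The smallest p-values were those of Birc5 at -0.41 ± 0.14 (SE, adjusted p = 0.393), Cenpf at -0.38 ± 0.15 (SE, adjusted p = 0.420) and Cdc20 at -0.58 ± 0.22 (SE, adjusted p = 0.420). In all 4 backgrounds at once, 23 of the 39 had a lower mean after radiation, against 10.5% of all genes. The count of 8 rested on single arrays: it was 5 without MNU nonmutated 4, 1 without PhIP nonmutated 2 and 31 without PhIP nonmutated 4. The share of all genes at that level without these arrays was not counted. Ttk had the largest difference of the 39, -0.60 (adjusted p = 0.460), and Mcm7 the smallest, -0.09. These sizes depended on the probe set used. In a fit over probe sets a second Ttk probe set gave -0.23, and other Cdc20 probe sets gave -0.36, -0.16 and -0.23. Mad2l1 went the other way, with -0.13 for the probe set used and -0.36 and -0.27 for others. Markers of other cell types moved as well, without any passing. Mast cell genes were lower in 5 of 6 cases (median -0.84) and skeletal muscle genes in 6 of 6 (median -0.52). Macrophage genes were higher in 6 of 7 (median 0.27), and T and NK cell genes in 7 of 7 (median 0.07). Their part in the result was not tested.

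Without a chemical, 36 of 39 members were lower in the 4 radiation cancers than in the 3 spontaneous ones, with a median of -0.56. None passed (0.0255% of all genes), and 3 were lower at an unadjusted p under 0.05, against 2.79% of all genes. The 3 became 0 without spontaneous 3 and 10 without radiation 1, and the median was -0.35 without radiation 2 and -0.68 without radiation 1. Skeletal muscle genes were lower in 6 of 6 cases with a median of -1.35, 3 of them at an unadjusted p under 0.05. Their mean level was 10.27, 6.61 and 8.81 in the spontaneous cancers and 6.77 to 7.65 in the radiation cancers, so that 1 spontaneous cancer lay below the irradiated ones, and their part in the result was not tested. Aurka, the kinase of the spindle poles, was at 8.89, 9.43 and 9.58 in spontaneous cancers and at 8.99, 7.97, 8.33 and 8.48 in radiation cancers, a difference of -0.85 ± 0.33 (SE, adjusted p = 0.871). Birc5 was at 9.60, 9.86 and 10.33 against 9.78, 8.58, 9.14 and 9.20, a difference of -0.76 ± 0.31 (SE, adjusted p = 0.903). For both genes 1 irradiated array lay within the spontaneous range. Cdc20, whose values are given above, differed by -1.09 ± 0.48 (SE, adjusted p = 0.938). For 9 of the 39, among them Cdc20, Kif2c, Prc1 and Aurkb, every radiation cancer lay below every spontaneous cancer, which 4.12% of all genes did. The 26 mitosis members had a median of -0.65 and the 13 replication members one of -0.14.

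In the PhIP background, 37 of 39 members were lower in the 4 radiation plus PhIP cancers, with a median of -0.49. None passed (0% of all genes) and 7 were lower at an unadjusted p under 0.05, against 4.66% of all genes. Cdc25b was at 9.75, 9.43 and 8.39 without radiation and at 8.77, 7.83, 8.64 and 8.39 with it, a difference of -0.79 ± 0.27 (SE, adjusted p = 0.434). Ube2c was at 11.54, 10.71 and 9.49 against 9.91, 9.59, 9.69 and 9.74, a difference of -0.85 ± 0.37 (SE, adjusted p = 0.490). Kif2c was at 10.31, 9.93 and 9.02 against 9.13, 8.65, 9.13 and 9.46, a difference of -0.66 ± 0.30 (SE, adjusted p = 0.501). In each of these genes the first and second unirradiated values were above all irradiated ones, and that of PhIP nonmutated 4 was among them or below. For no member did the groups separate, as they did in this direction for 6.25% of all genes. The median was -0.11 without PhIP nonmutated 2, with Cdc25b at -0.51, Ube2c at -0.37 and Kif2c at -0.38, and -0.95 without PhIP nonmutated 4. Fibroblast genes were higher after radiation in 7 of 7 cases, with a median of 0.84, but this rested on PhIP nonmutated 2. Their mean level was 8.23 on that array, 12.04 and 12.25 in the other unirradiated cancers, and 11.39 to 12.04 with radiation. Their part in the result was not tested. With array weights Cdc25b, Ube2c and Ccnb1 passed, at -0.90, -0.93 and -1.02, and 2.32% of all genes passed in that direction. Here too the mitosis members had a median of -0.65 and the replication members one of -0.15.

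After MNU the differences were small. In H-ras mutated cancers, 31 of 39 members were lower after radiation, with a median of -0.13. None passed (0% of all genes) and none was lower at an unadjusted p under 0.05, against 3.95% of all genes. Mcm2 was at 10.48, 10.16, 9.70, 9.58 and 9.36 without radiation and at 8.97, 8.89, 9.62, 9.43 and 10.24 with it, a difference of -0.43 ± 0.26 (SE, adjusted p = 0.848). The value of 10.48 is that of MNU mutated 1, an array with a high hexokinase ratio, and the difference was -0.27 without it. Mcm4 differed by -0.29 (adjusted p = 0.899) and Aurka by 0.29 (adjusted p = 0.899), and the arrays of both groups overlapped for each. No member separated the groups (0.433% of all genes did so downward). The median turned to 0.02 without radiation plus MNU mutated 3 and was -0.36 without radiation plus MNU mutated 5.

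In the MNU nonmutated cancers, 31 of 39 were lower after radiation, with a median of -0.15. None passed (0% of all genes) and none was lower at an unadjusted p under 0.05, against 4.51% of all genes. Mcm2 was at 9.71, 10.04, 9.20 and 10.64 against 9.35, 9.12, 9.15 and 9.74, a difference of -0.56 ± 0.29 (SE, adjusted p = 0.670). Cdt1 was at 8.99, 9.54, 8.71 and 8.92 against 8.94, 7.61, 8.20 and 8.78, a difference of -0.66 ± 0.35 (SE, adjusted p = 0.672). Tyms, near the limit of the filter, was at 7.35, 7.59, 7.33 and 8.21 against 7.01, 6.78, 7.15 and 7.66, a difference of -0.47 ± 0.26 (SE, adjusted p = 0.686). The groups overlapped for all members, whereas 2.04% of all genes separated downward. The replication members had the lower median here, -0.37, and the mitosis members -0.06. MNU nonmutated 4 had the highest hexokinase ratio, and without it the median was 0.01, with Mcm2 at -0.31 and Tyms at -0.27. Cdt1 was -0.40 without radiation plus MNU nonmutated 2. Macrophage genes were higher after radiation in 7 of 7 cases, with a median of 0.58 and 4 at an unadjusted p under 0.05. Their mean level was 10.10 to 10.74 without radiation and 10.21 to 11.35 with it, and their part in the result was not tested. With array weights, which gave MNU nonmutated 4 the lowest weight, 14 of 39 were lower, where 31 were without weights. The lower direction thus did not hold for most members in that setting.

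**Figure D4:**
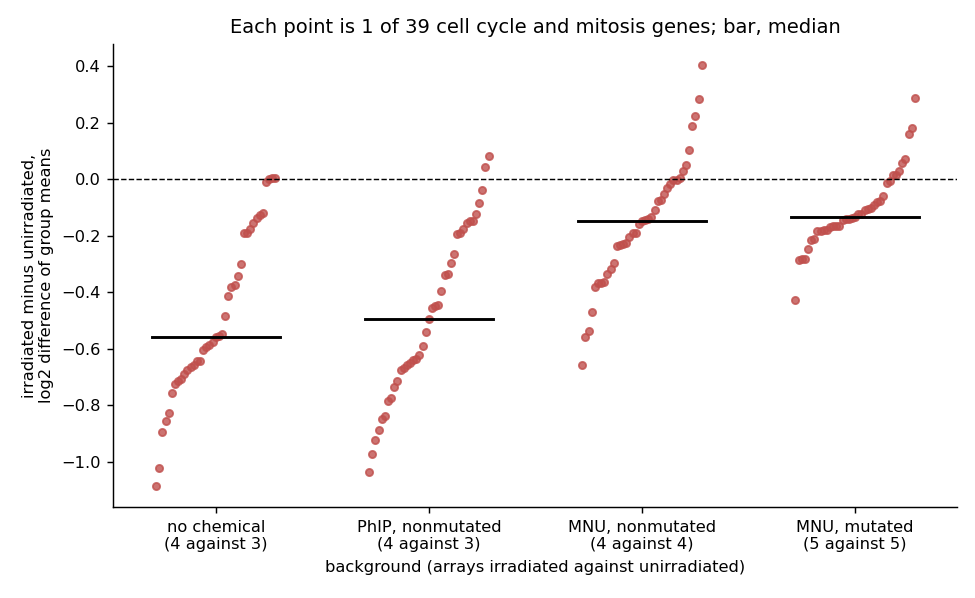
Difference between irradiated and unirradiated cancers for each of the 39 genes (points), on the log2 scale, in the 4 backgrounds; horizontal bars are medians. The medians are -0.56 without a chemical, -0.49 with PhIP, and -0.15 and -0.13 with MNU in nonmutated and mutated cancers.

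Whether the radiation difference depended on the background was tested as an interaction. No member passed (0% of all genes), and 1 had an unadjusted p under 0.05, against 6.15% of all genes. That gene was Aurka (adjusted p = 0.751), at 8.46, 8.56, 8.44 and 8.53 in radiation plus MNU nonmutated cancers and 7.96, 8.66, 7.87 and 8.62 in MNU nonmutated ones. Leaving out PhIP nonmutated 4 raised the count to 9. Different medians in the backgrounds were thus not shown to differ.

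H-ras mutation was compared within the MNU and the radiation plus MNU cancers, with equal weight. No member passed (0% of all genes), and none was lower at an unadjusted p under 0.05, against 3.63% of all genes. The median difference was -0.16, with 31 of 39 lower in the mutated cancers. Ccnb2, cyclin B2, was at 9.12, 9.94, 9.37, 8.91 and 8.85 in MNU mutated cancers and at 9.14, 10.33, 8.75 and 10.60 in MNU nonmutated ones. With radiation it was at 9.72, 8.80, 8.75, 9.11 and 9.77 in mutated and at 9.68, 9.81, 9.54 and 9.68 in nonmutated cancers, and the average difference was -0.46 ± 0.25 (SE, adjusted p = 0.691). The groups overlapped in both settings. Aurka differed by -0.32 ± 0.20 (SE, adjusted p = 0.753) and Top2a by -0.31 ± 0.22 (SE, adjusted p = 0.797). Without MNU nonmutated 4 the median was -0.06, with Ccnb2 at -0.31. Macrophage genes were lower in the mutated cancers in 7 of 7 cases (median -0.44, 4 at an unadjusted p under 0.05) and fibroblast genes in 7 of 7 (median -0.46). None of these passed, and their part in the result was not tested.

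Replication and mitosis members did not keep the same balance on every array. The mean of the 13 replication members minus that of the 26 mitosis members, a difference whose zero has no meaning, was -0.01, -0.02 and -0.30 in the spontaneous cancers. In radiation cancers it was 0.04, 0.38, 0.79 and 0.26, so that none overlapped the spontaneous ones. Over the remaining cancers it ran from -0.40 in radiation plus MNU nonmutated 2 to 1.02 in radiation plus MNU mutated 3. PhIP nonmutated cancers were at -0.35, -0.04 and 0.54, and radiation plus PhIP cancers at 0.53, 0.72, 0.53 and 0.38. Normal tissue was at 0.25, 0.35 and 0.80.

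**Figure D5:**
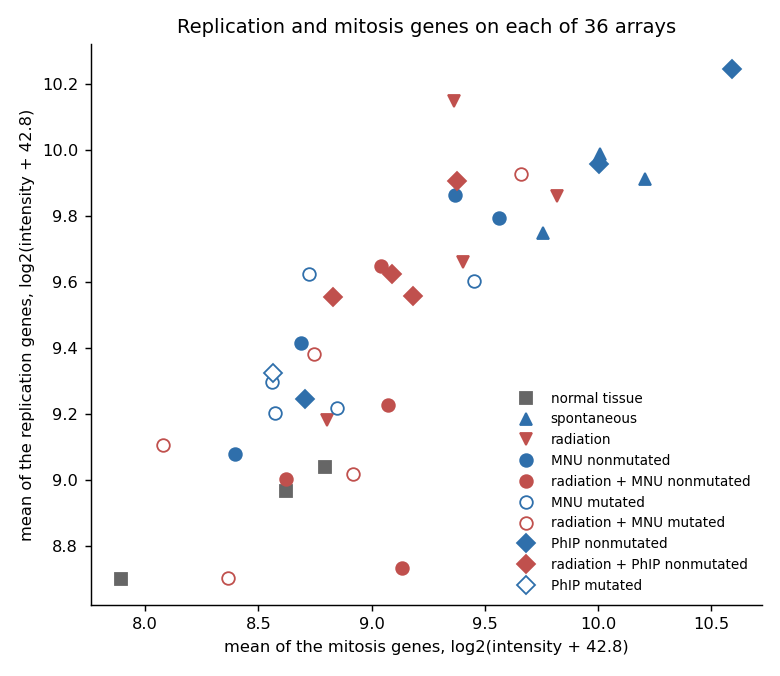
Mean level of the 13 replication genes (vertical axis) against that of the 26 mitosis genes (horizontal axis) on each of the 36 arrays, both as log2(intensity + 42.8); symbols give the group and red marks irradiated cancers. Both means rise together, from normal tissue 3 at 7.89 on the horizontal and 8.70 on the vertical axis to PhIP nonmutated 2 at 10.59 and 10.25, and radiation plus MNU mutated 3 at 8.08 and 9.10 and radiation plus MNU nonmutated 2 at 9.13 and 8.73 lie farthest to either side.

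Genes outside the 39 with the most similar pattern were taken by correlation with the member mean over the 33 cancers. Cks2, a small subunit bound to cyclin-dependent kinases, came first with a Pearson correlation of 0.98. Racgap1, Kif22, Plk4, Spc25, Nuf2, Pclaf, Ncaph, Cdca8 and Ect2 followed, the last of these 10 at 0.96. Leaving out the 2 arrays farthest from the median kept all 10 between 0.95 and 0.98. Lists of other cell cycle genes were set against the member mean in the same way. Of 27 other mitosis genes measured, the mean had a correlation of 0.99 with the member mean, of 19 other replication genes 0.92, of 11 genes of G1/S control 0.70, and of 12 cell cycle brakes 0.15. The 27 include Cks2, Racgap1, Kif22, Spc25, Nuf2, Ncaph, Cdca8 and Ect2 named above.

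Against normal tissue, 8 of the 19 other replication genes rose and none fell, where 18.0% of all genes rose and 16.3% fell. The dUTPase gene Dut rose by 1.07 (adjusted p = 0.000277), the chromatin remodeller Hells by 1.01 (adjusted p = 0.00457) and the polymerase subunit Pold1 by 0.59 (adjusted p = 0.00564). Of the 27 other mitosis genes, 9 rose and none fell. Among them were the microtubule regulator Stmn1 at 1.16 (adjusted p = 6.76e-05), the kinetochore gene Zwint at 0.60 (adjusted p = 0.000494) and the kinesin Kifc1 at 1.03 (adjusted p = 0.00141). In G1/S control 4 of 11 rose, with Ccnd1, cyclin D1, at 1.19 (adjusted p = 0.000259), Cdk4 at 0.53 (adjusted p = 0.000613) and Ccne1 at 0.72 (adjusted p = 0.0363). Brakes moved both ways, with 5 of 12 higher and 2 lower. Cdkn2b rose by 1.79 (adjusted p = 1.10e-05) and Cdkn2a by 3.18 (adjusted p = 2.41e-05), both inhibitors of the cyclin D kinases, and Rb1, the retinoblastoma gene, fell by 1.65 (adjusted p = 5.97e-05). In the radiation average no gene of these 4 lists passed, and 19 of 19 other replication genes, 26 of 27 other mitosis genes and 11 of 11 G1/S genes were lower, against 7 of 12 brakes and 57.1% of all genes. The replication and mitosis lists followed the member mean closely over the same cancers, so their direction is not separate evidence.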

How the data were processed

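The authors deposited linear intensity values of 31099 probe sets on 36 arrays, scaled so that the mean without the outer 2% was about 500.1 on every array; how probes were summarised is not given here. Of the probe sets, 20832 carried 1 gene symbol, 436 several and 9831 none in the platform table, and the first kind was used. Values were taken as log2(intensity + 42.8), a constant set at percentile 20 of the deposited table, and no normalization was added because array medians lay between 7.67 and 8.05. Genes above 125.8 (percentile 40) on at least 3 arrays were kept, with the probe set of highest mean per gene, which left 11773. limma 3.58.1 in R 4.3.3 fitted 1 mean per group over all 36 arrays, with Benjamini-Hochberg adjustment over all genes tested and a threshold of 0.05. The comparison of cancers with normal tissue weighted groups by size. The number of arrays limits the precision. Named genes are the members, with values per array for those of smallest p in each comparison. The members and the lists of other genes were chosen with earlier results of these data known. No arrays were identical (highest correlation 0.984), and the labels give no batch. Alternatives were another constant, no filter, quantile normalization, the mean of probe sets, array weights, the hexokinase ratio as a covariate, a replicate block and leaving out each array. The script was tested on simulated data. Promoter letters came from RefSeq (GRCr8).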

Additional observations from a re-analysis of the deposited data

Results flagged for a closer look

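Of 294 tests for an array far from the rest of its group, over the 39 genes and the means by role, 14 found one, and chance gives about 5%. Groups of 3 arrays or fewer were not among these tests. Normal tissue 3 and PhIP nonmutated 2 and 4, in such groups, could therefore not be flagged. In MNU mutated 2, Ttk (8.47), Ube2c (10.18) and Aurka (8.74) were high, as were the mean of the spindle genes (9.68) and of the chromatin and transcription genes (9.68). In the same group Gins1 was low in MNU mutated 4, at 7.31 against 7.89 to 8.10. In radiation plus MNU mutated 5, Bub1 (9.08) and Kif20a (9.59) were high. In radiation plus MNU nonmutated 3, Cdk1 (9.39) and Nusap1 (9.19) were low, as was the mean of the cyclin genes (8.95). In the MNU nonmutated group Mcm5 was high in array 2 (9.25), and Bub1 was high in array 4, at 9.64 against 7.95 to 8.20, the array with the highest hexokinase ratio. The mean of the licensing and fork genes was high in radiation plus PhIP 3, at 10.15.

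The radiation difference of Aurka had opposite signs between backgrounds. It was 0.22 in MNU nonmutated cancers, where all irradiated arrays lay above the unirradiated mean, and -0.85 without a chemical and -0.71 with PhIP, where all lay below it. The limma interaction had an unadjusted p of 0.0198 and an adjusted p of 0.751.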

How the results depend on the processing

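Against normal tissue, the 18 members that rose became 3 to 23 when 1 array was left out, and Kif2c and Prim1 rose in all 44 alternatives. With 1 array left out, calls over all genes, in either direction, ran from 2680 to 4262. The replicate block gave 13, and 0 in the other comparisons; same-numbered arrays of different groups had correlations of -0.50 to 0.39, so the numbers do not pair arrays. Other settings gave 15 to 18. One group at a time, chosen after seeing the data, the count was 34 for spontaneous, 15 for radiation, 33 for PhIP nonmutated and 8 for radiation plus PhIP. It was 3 for MNU mutated, 3 for MNU nonmutated, 2 for radiation plus MNU mutated and 1 for radiation plus MNU nonmutated. With 1 array left out the counts ran from 16 (9.19% of all genes) to 33 (10.1%) for spontaneous. They ran from 3 (8.19%) to 18 (11.2%) for radiation and from 1 (6.83%) to 38 (13.2%) for PhIP nonmutated. In all other comparisons leaving out 1 array gave 0 to 0 members at the threshold. Array weights gave 3 members for radiation in PhIP cancers and 25 for the nonmutated groups; the iteration that set the weights stopped short of its tolerance, and the cause of the change was not tested. No value reversed its direction once called. Weak signals limit Tyms and Ttk, which were above the filter on 17 and 19 of 36 arrays. Bub1b, which rose, was weak in normal tissue too, at 7.42, 7.26 and 6.90, against 7.33, 7.42 and 6.75 for Tyms.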

Other observations

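Genes whose level ran opposite to the 39 across the 33 cancers were Dst (Pearson correlation -0.86), Ypel3 (-0.85), Crebl2 (-0.80), Khnyn (-0.78) and Ddhd2 (-0.77), chosen after their values were seen. Without the 2 arrays farthest from the median the values ran from -0.80 for Ypel3 to -0.68 for Ddhd2. The means of 10 marker lists of other cell types had correlations with the member mean between -0.26 (endothelial and fibroblast genes) and 0.20 (mast cell genes). The fibroblast value was 0.17 without PhIP nonmutated 2, its Spearman correlation over all 33 cancers was 0.04, and with group means taken out the Pearson value was -0.47. Without that array the luminal value moved from -0.17 to -0.26 and the adipocyte value from -0.15 to -0.05. These are descriptions over arrays that share their scaling.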
